A study of Canis lupus familiaris with 14 samples.

Results

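SOST, MEPE, DMP1, PHEX and FGF23 are genes whose transcripts in bone come mainly from osteocytes, the cells embedded in the mineralized matrix. The 5 genes were set by name, and their Ensembl identifiers were taken from the symbols of the study's supplementary tables. All 5 were found among the 30951 genes of the count table. Polyadenylated RNA was sequenced from the tumor and from patient-matched normal bone of 7 dogs with spontaneous osteosarcoma (OSA), giving 14 libraries. Every sample was taken at limb amputation, before chemotherapy, and no group carried a transgene or an experimental treatment. The dogs were Golden Retrievers (A and F), a Rottweiler (B), a Doberman Pinscher (C), Greyhounds (D and G) and a Great Pyranees (E). Dogs E and G were spayed females and the others castrated males. Their ages differed, with dog D the oldest and dogs B, C and F the youngest. The tumors lay in the distal radius in dogs A, C, E and F, the proximal humerus in dog D, the distal femur in dog B and the distal tibia in dog G. Normal bone was always the phalanx P2 of the amputated leg, so the skeletal site and the tissue cannot be told apart. Bone and tumor RNA were also extracted by different methods, and the study describes its bone samples as freed of marrow and of cells outside the matrix. The extraction method and the tissue cannot be told apart either. By the paper's RNA integrity numbers, integrity was lowest in dog B among the bones and in dog A among the tumors. The bone of dog B lay under the level below which, the paper states, reliable sequencing is not guaranteed. Both libraries were kept, and the part of RNA integrity in the values below was not tested.

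An osteocyte is a terminally differentiated osteoblast that has been walled in by the matrix it made. SOST encodes sclerostin, a secreted protein that binds the Wnt co-receptors on osteoblasts and restrains bone formation. MEPE and DMP1 encode acidic phosphoproteins of the matrix from the SIBLING family (small integrin-binding ligand, N-linked glycoproteins) and act on mineralization. PHEX encodes a membrane endopeptidase, and FGF23 encodes the hormone by which bone lowers the reabsorption of phosphate in the kidney. Inherited loss of PHEX or DMP1 raises FGF23 and causes hypophosphatemic rickets.

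In tumors, SOST and MEPE were lower than in bone of the same dog in 7 of 7 dogs. The log2 fold change was -6.93 for SOST and -7.39 for MEPE. DMP1 was also lower in 7 of 7 tumors, but in dog C the difference was close to 0. PHEX was lower in 6 tumors and higher in the tumor of dog C. FGF23 had low counts in both tissues and differed little in dogs A and E. A gene was called where the edgeR quasi-likelihood test, paired by dog, gave an FDR (Benjamini-Hochberg adjusted p) under 0.05 and tumor and bone differed by more than 2 times, provided that the mean normalized count over all libraries (base mean) exceeded 10. By this rule 2 of the 5 genes, SOST and MEPE, were called lower in tumor, against 1.79% of the 27655 genes tested, and 0 were called higher, against 1.35%. The lowest bone exceeded the highest tumor for 0 of the 5 genes, against 1.44% of all genes. The median log2 fold change of the 5 genes was -3.73, and that of all genes tested was -0.05. The identifiers of the 5 genes came from tables that list mainly genes the study called. Their shares and median, here and below, are therefore not comparable with those of all genes. In bulk RNA, fewer osteocytes and less of a transcript per osteocyte cannot be told apart.

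**Figure D1:**
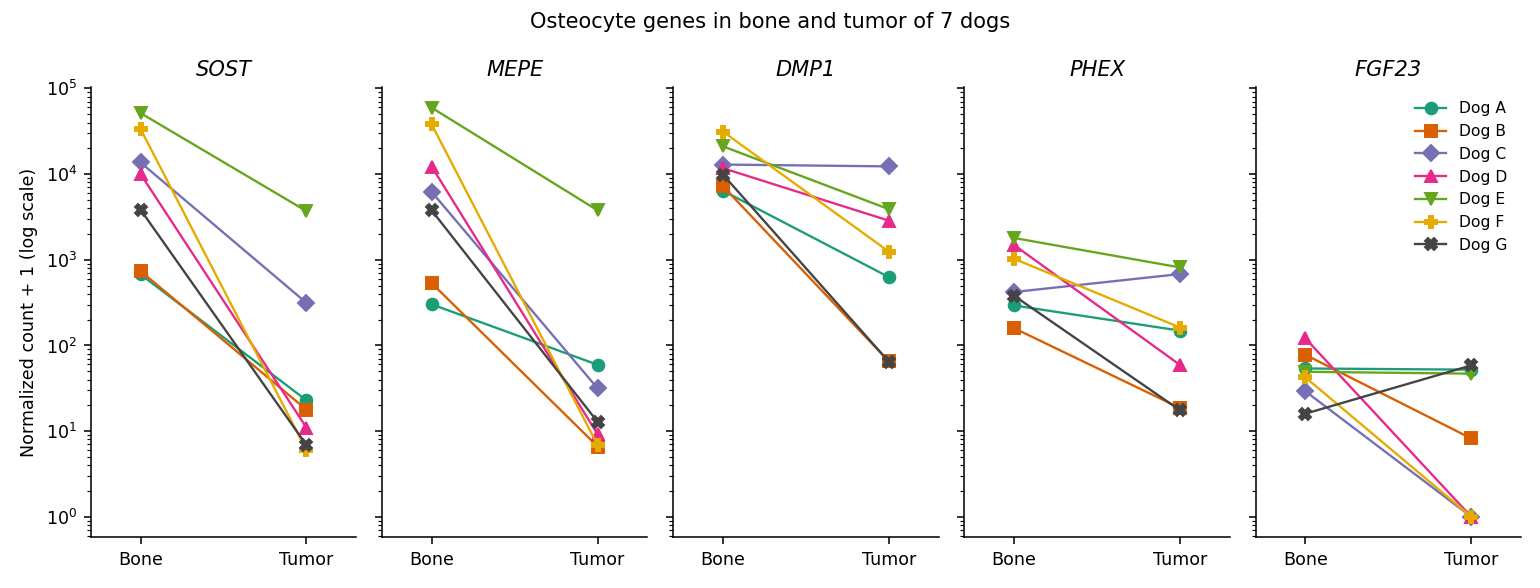
Normalized counts plus 1 (log scale) of the 5 genes in bone and tumor, with 1 line for each of the 7 dogs. The SOST and MEPE lines fall in every dog and the tumor of dog E stays highest, at 3696 and 3768, while dog C keeps DMP1 (12930 in bone and 12304 in tumor).

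SOST (ENSCAFG00000028730) varied widely among the bones. Normalized counts were lowest in dog A at 675, had a median of 10043 and were highest in dog E at 51575, a range of 76.5-fold. In the tumors they were lowest in dog F at 5 and highest in dog E at 3696, with a median of 16.8. The tumor of dog C held 313 normalized counts, and the other 5 tumors held 21.9 or fewer. Thus 6 of 7 tumors lay below the lowest bone, and the groups overlapped only through the tumor of dog E. Within dogs, bone exceeded tumor by 14-fold in dog E and by 6740-fold in dog F, with a median of 43.9-fold. The tumor value of dog F rests on 6 reads, so its fold is imprecise. In the edgeR test, tumor and bone differed by -6.93 (log2 fold change, standard error 1.16, FDR = 0.0109), and SOST was called with any of the 7 dogs left out.

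The bones with the lowest and the second-highest SOST came from dogs of the same breed. Golden Retriever bone held 675 normalized counts in dog A and 33727 in dog F. Greyhound bone held 10043 in dog D and 3846 in dog G. The dogs within each of these breeds also differed in age, and dogs D and G in sex. In the dogs with hindlimb tumors, B and G, bone SOST was 738 and 3846, within the range of the forelimb dogs. The value of 738 comes from the bone with the lowest RNA integrity.

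MEPE (ENSCAFG00000047433) followed SOST closely. In bone it ranged over 198-fold, from 301 normalized counts in dog A through a median of 6198 to 59548 in dog E. In tumor the lowest value was 5.61 in dog B, the median 11.8 and the highest 3768 in dog E. Again 6 of 7 tumors lay below the lowest bone, and the tumor of dog E overlapped the bones. The tumor of dog A retained the most relative to its bone, which exceeded it by 5.15-fold, whereas the bone of dog F exceeded its tumor by 6507-fold. Its edgeR log2 fold change of -7.39 had a standard error of 1.34 (FDR = 0.0153). With dog G left out, MEPE missed the threshold at an FDR of 0.0517, whereas it was called with any other dog left out.

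DMP1 (ENSCAFG00000009548) had the narrowest range of these genes in bone by normalized counts. Its normalized counts lay between 6402 in dog A and 31325 in dog F, with a median of 11740, a range of 4.89-fold. The tumors were far more variable and spanned 194-fold, from 63.5 in dog G through a median of 1244 to 12304 in dog C. On the variance-stabilized log2 scale the SD between dogs was 0.81 in bone and 2.41 in tumor. For SOST the corresponding SDs were 2.41 and 2.14, and for FGF23, whose low counts this scale compresses, 0.41 and 0.70. Bone exceeded tumor by 156-fold in dog G and 113-fold in dog B, but by 1.05-fold in dog C. Because of dog C, 1 tumor lay within the range of the bones.

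The log2 fold change of DMP1 was -3.73 (standard error 0.91), and its edgeR FDR was 0.0516, just over the threshold. Without dog C it was -4.36 with an FDR of 0.0285. DMP1 was called when low-count genes were removed (FDR = 0.0423, where 3.81% of the genes were called lower) and with limma-voom (FDR = 0.0317).

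PHEX (ENSCAFG00000013325) was counted at a lower level. Bone held between 158 normalized counts in dog B and 1795 in dog E, with a median of 420. Tumor held between 16.5 in dog G and 813 in dog E, with a median of 148. The groups overlapped broadly, and 4 of 7 tumors lay below the lowest bone. Dog C was the exception in direction, where tumor (681 normalized counts) exceeded bone (420). Tumor and bone differed by -2.33 on the log2 scale with a standard error of 0.66 (edgeR FDR = 0.0849), and without dog C it was -2.85 with an FDR of 0.0339.

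FGF23 (ENSCAFG00000015365) was counted in all 7 bones, with 19 reads in dog G and 162 in dog D. Normalized counts in bone ran from 15 to 120 with a median of 48.3. In tumor it had 0 counts in dogs C, D and F, a level that allows up to 3 counts, or 3.82, 2.72 and 2.5 normalized counts. The tumors of dogs A, E and G held 51.2, 45.9 and 57.6 normalized counts, similar to bone of dogs A (52.9) and E (48.3) and above bone of dog G (15). The 7 dogs thus did not share a pattern. FGF23 was not detected in 3 tumors, bone of dog B exceeded its tumor by 10.7-fold, both tissues were nearly equal in dogs A and E, and tumor was the higher in dog G. The fitted log2 fold change of -2.71 (standard error 1.52, edgeR FDR = 0.407) depends on the prior count because of the libraries at 0.

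The number of called genes depended on the test. The DESeq2 Wald test on the same design called all 5 genes lower in tumor, against 6.85% of the 18004 genes for which it gave an adjusted p-value. The identifiers of the 5 genes came from tables that list mainly genes the study called with DESeq2, so this count is not independent of how they were found and its share is not comparable with that of all genes. Limma-voom called SOST, MEPE and DMP1, against 2.19% of all genes. Without the dog in the design 0 of the 5 genes were called by edgeR, against 1.76% of all genes, although 3 of them (SOST, MEPE and DMP1) had an unadjusted p under 0.05. The log2 fold changes were then -4.83 for SOST (FDR = 0.0857) and -4.97 for MEPE (FDR = 0.0985).

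**Figure D2:**
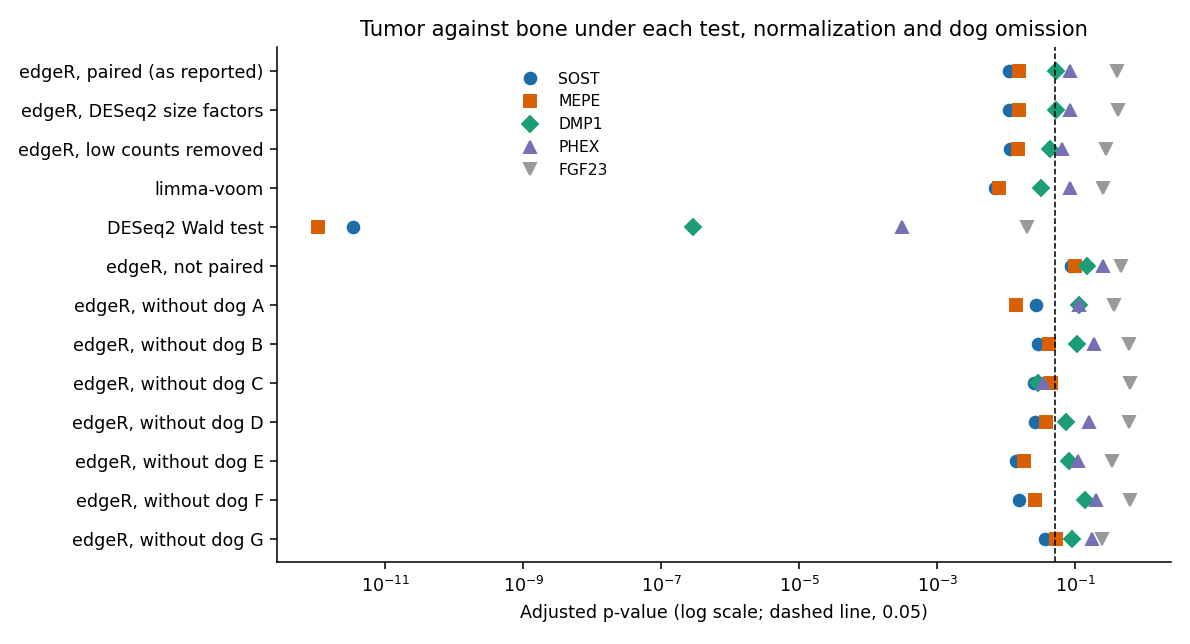
Adjusted p-value (log scale) of each of the 5 genes for tumor against bone under every test, normalization and omission of a dog; the dashed line marks 0.05. SOST lies left of the line in every row but the unpaired fit (0.0857), and DMP1 lies on either side of it, from 2.89e-07 with the DESeq2 Wald test through 0.0516 in the reported fit to 0.146 in the unpaired fit.

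To compare the dogs, the variance-stabilized count of bone was subtracted from that of tumor in each dog. This transformation compresses low counts, so the differences are smaller than the folds in normalized counts, most of all for FGF23. SOST differed by -5.24 ± 2.17 (SD, n = 7 dogs) and MEPE by -5.19 ± 2.57. DMP1 differed by -3.41 ± 2.14, PHEX by -1.52 ± 1.31 and FGF23 by -0.69 ± 0.93. On the log2(normalized count + 1) scale the mean differences were -2.33 for PHEX and -2.67 for FGF23. For SOST, MEPE and DMP1, exchanging bone and tumor within dogs gave an exact two-sided permutation p of 0.0156, the smallest value that 7 dogs allow. The exact permutation p was 0.0312 for PHEX and 0.0781 for FGF23. Among all 27655 genes, 4.71% had a lower value in every one of the 7 tumors, as had 3 of these 5, whose pairing with identifiers limits the comparison.

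**Figure D3:**
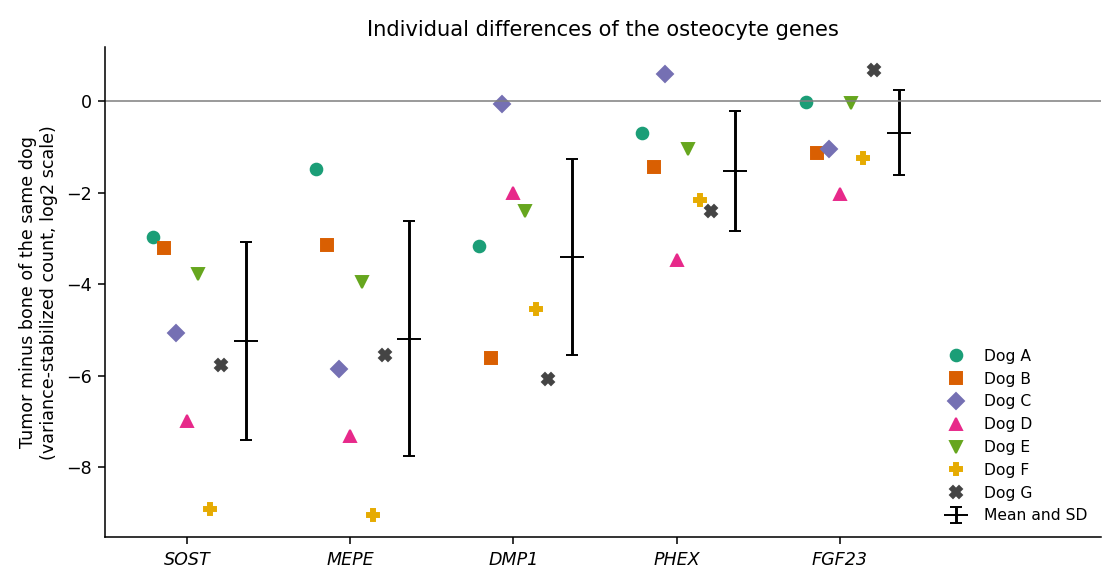
Difference between tumor and bone of the same dog in variance-stabilized counts (log2 scale) for the 5 genes, with 1 point per dog, the mean and the SD. The largest difference is that of MEPE in dog F (-9.05), and the positive values are PHEX in dog C (0.59) and FGF23 in dog G (0.69).

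The order of the dogs was not the same for all genes. SOST and MEPE differed most in dog F (-8.91 and -9.05) and then in dog D (-6.99 and -7.33). DMP1 differed most in dogs G (-6.07) and B (-5.62), where SOST differed by -5.78 and -3.21. In dog C, SOST and MEPE differed by -5.07 and -5.85 while DMP1 and PHEX stayed at -0.07 and 0.59. The tumor of dog C therefore held DMP1 and PHEX at about the level of its bone with little SOST and MEPE.

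The changes of SOST, MEPE, DMP1 and PHEX were compared with each other in 6 pairs, a comparison added after their values were seen. SOST minus PHEX was -3.72 ± 1.83 (SD), below 0 in 7 of 7 dogs (exact permutation p = 0.0156, adjusted over the 6 pairs p = 0.0469). MEPE minus PHEX was -3.67 ± 2.28, also below 0 in 7 of 7 dogs (adjusted exact p = 0.0469). With any dog left out, the adjusted p of both pairs lay between 0.0625 and 0.0938, and the smallest exact p that 6 dogs allow is 0.0312. SOST minus MEPE was -0.05 ± 0.72 (adjusted exact p = 0.891). The remaining pairs had an adjusted exact p between 0.125 and 0.281, so DMP1 was not shown to differ from any of the others.

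Among the 7 bones, 4 of the 6 pairs of SOST, MEPE, DMP1 and PHEX were related beyond the threshold. Relations were computed for all pairs of the 5 genes within each tissue, 20 in all, on variance-stabilized counts with exact permutation tests. SOST and MEPE had Pearson's r = 0.98 (n = 7, exact p = 0.000794, adjusted p = 0.0159) and Spearman's rho = 0.96 (exact p = 0.00278, adjusted p = 0.0278). Each r was computed again without the 2 libraries farthest from the median of the first gene of the pair, and for SOST and MEPE it was then 0.94. SOST and DMP1 had r = 0.93 (exact p = 0.00437, adjusted p = 0.0397) and rho = 0.96 (exact p = 0.00278, adjusted p = 0.0278), with r = 0.87 after the omission. MEPE and DMP1 had r = 0.93 (exact p = 0.00595, adjusted p = 0.0397) and rho = 0.93 (exact p = 0.00675, adjusted p = 0.0337), with r = 0.86 after the omission. MEPE and PHEX had r = 0.89 (exact p = 0.00833, adjusted p = 0.0417) and rho = 0.93 (exact p = 0.00675, adjusted p = 0.0337), with r = 0.84 after the omission. SOST and PHEX had r = 0.85 (exact p = 0.0226, adjusted p = 0.0635) and rho = 0.86 (exact p = 0.0238, adjusted p = 0.0794), with r = 0.68 after the omission, and did not pass. DMP1 and PHEX did not pass either, with r = 0.75 (exact p = 0.0567, adjusted p = 0.113) and rho = 0.79 (exact p = 0.048, adjusted p = 0.137), with r = 0.83 after the omission. For the relations that had passed, the bones left out were those of dogs A and B, the latter with the lowest RNA integrity. With 5 bones left, the adjusted p of each relation that had passed was over 0.05.

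FGF23 did not share this pattern in bone. Its r with the other 4 genes lay between -0.16 and 0.25, and the lowest exact p of r was 0.597. The bone with the most FGF23 was that of dog D, which held less SOST than those of dogs C, E and F.

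Among the tumors, SOST and PHEX had r = 0.83 (n = 7, exact p = 0.0111, adjusted p = 0.0444) but rho = 0.61 (exact p = 0.167, adjusted p = 0.333). Without the 2 tumors farthest from the median of SOST r was 0.07, so this relation rests on those of dogs C and E. SOST and MEPE had r = 0.93 in tumor (exact p = 0.0274, adjusted p = 0.0635) and rho = 0.71 (exact p = 0.0881, adjusted p = 0.22), and r was 0.64 after the same omission. DMP1 and PHEX had r = 0.84 (exact p = 0.0244, adjusted p = 0.0635) and rho = 0.86 (exact p = 0.0238, adjusted p = 0.0794), with r = 0.69 without the 2 tumors farthest from the median of DMP1.

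**Figure D4:**
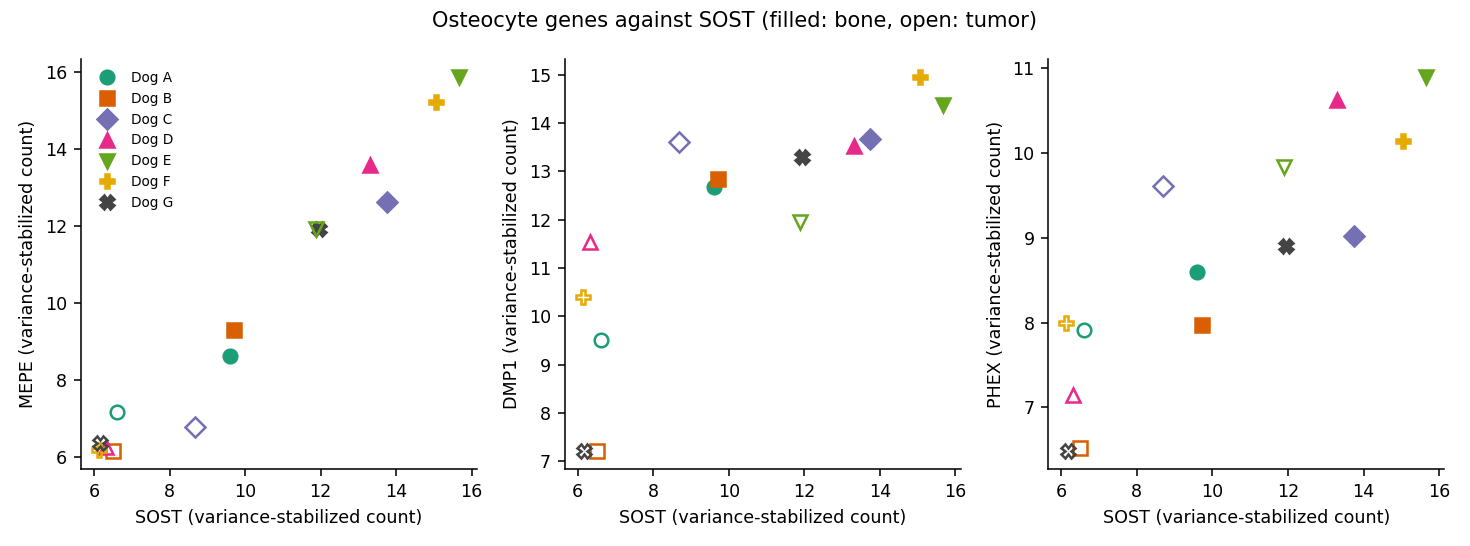
Variance-stabilized counts of MEPE, DMP1 and PHEX against SOST in each library, with filled symbols for bone and open symbols for tumor of dogs A to G. In bone r is 0.98, 0.93 and 0.85, the last with an adjusted p of 0.0635 in the exact test, while the tumor of dog C lies high for DMP1 and PHEX.

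Ratios of raw counts within a library do not depend on the normalization between libraries, although they still contain the lengths of the transcripts. MEPE per SOST was between 0.447 and 1.22 in bone, with a median of 0.978, and between 0.0976 and 2.67 in tumor, with a median of 1.02. DMP1 per SOST was between 0.409 (dog E) and 9.79 (dog B) in bone and between 1.05 (dog E) and 287 (dog D) in tumor. The ratio was higher in tumor than in bone in 6 of 7 dogs, and in dog B it went from 9.79 to 3.81. PHEX per SOST was higher in tumor in all 7 dogs, from a median of 0.0985 in bone to 2.8 in tumor. The ratios in tumor are imprecise, since SOST rests on 21 reads or fewer in the tumors of dogs A, B, D, F and G.

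MEPE and DMP1 lie in a cluster of SIBLING genes. In the RefSeq annotation of the German Shepherd assembly UU_Cfam_GSD_1.0, the order of protein-coding genes is SPP1, MEPE, IBSP, DMP1 and DSPP, flanked by PKD2 and SPARCL1. SPP1, which encodes osteopontin, was the only other family member paired with an identifier. SPP1 (ENSCAFG00000009569) averaged 73617 ± 21004 normalized counts over the 7 bones and 15544 ± 12392 over the tumors (SD), and was lower in 7 of 7 tumors. The edgeR test gave -2.68 on the log2 scale with a standard error of 0.55 (FDR = 0.0277). SPP1 was not called without dog A, C, D or G. MEPE minus SPP1 was -2.50 ± 2.37 (SD) on the variance-stabilized scale, below 0 in 6 of 7 dogs (exact permutation p = 0.0469, adjusted over 2 pairs p = 0.0938). In dog A the order was inverted, at 2.31. On the log2(normalized count + 1) scale the mean was -4.61 (adjusted exact p = 0.0625). DMP1 minus SPP1 was -0.72 ± 2.54 (adjusted exact p = 0.469), and it was -0.07 without dog B and -1.30 without dog C.

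Of 16 other genes listed for osteocytes, 4 could be paired with an identifier. IRX5, a homeobox transcription factor, was called lower, with a log2 fold change of -1.41 (FDR = 0.0463 in the edgeR test). ACKR3, an atypical chemokine receptor, was lower in 7 of 7 tumors at -1.63 but had an FDR of 0.0705, and PTPRZ1, a receptor phosphatase, had -1.66 with an FDR of 0.128. MMP14, a membrane-bound collagenase that many stromal cells also express, was called higher, with a mean of 18877 ± 5435 normalized counts in the bones and 38392 ± 8780 in the tumors (SD, n = 7 dogs; log2 fold change 1.04, FDR = 0.019). The 4 genes therefore held 1 called lower and 1 called higher, against 1.79% and 1.35% of all genes. The number called was 0 without dog B or dog E and 1 without dog A, D, F or G.

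Of 23 genes of phosphate handling and the FGF23 axis, 7 could be paired, and 3 were called lower and 0 higher, with a median log2 fold change of -1.33 (1.79% lower, 1.35% higher and a median of -0.05 over all genes). Here and in the other lists the paired genes are mainly ones the study calls, so their share is not comparable with that of all genes. FGFR1, a receptor of FGF23, went from 20967 ± 5732 to 8506 ± 2685 normalized counts (SD, n = 7 dogs), which is -1.33 on the log2 scale (FDR = 0.0135 in the edgeR test). SLC20A2, a sodium-phosphate cotransporter, fell by 1.46 on the log2 scale (FDR = 0.00474), and ANKH, an exporter that limits mineralization, fell by 1.53 (FDR = 0.0284). SLC20A1, the related cotransporter, was higher in 7 of 7 tumors, with a log2 fold change of 0.88 (FDR = 0.0233) that stayed under the fold threshold. CYP27B1, which activates vitamin D, was higher in 6 of 7 tumors at 2.41 with an FDR of 0.159. The parathyroid hormone receptor PTH1R had -1.31 with an FDR of 0.167. The co-receptor KL of FGF23 was not paired with an identifier and was not analysed here.

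Of 27 genes around sclerostin and the Wnt pathway, 9 could be paired, and 3 were called lower and 0 higher, with a median log2 fold change of -1.26, against 1.79% lower and 1.35% higher over all genes. LRP4, which anchors sclerostin at the cell surface, averaged 8810 ± 3242 normalized counts over the bones and 2697 ± 2105 over the tumors (SD, n = 7 dogs), and was lower in 7 of 7 tumors (log2 fold change -2.06, FDR = 0.0135 in the edgeR test). LRP5, a Wnt co-receptor that sclerostin inhibits, fell by 1.26 on the log2 scale (FDR = 0.0135). The Wnt receptor FZD7 fell by 1.79 (FDR = 0.00865). WIF1, a secreted Wnt inhibitor, was lower in 6 of 7 tumors, but the tumor of dog C held 236592 normalized counts against 58618 in its bone, and the FDR was 0.138. The receptor FZD2 and the Wnt target SP5 were higher in 6 of 7 tumors, at 1.67 (FDR = 0.148) and 2.05 (FDR = 0.267), and were not called. LGR5, FZD4 and TCF7L2 were lower in 6 of 7 tumors, at -2.45 (FDR = 0.208), -0.94 (FDR = 0.057) and -0.87 (FDR = 0.071), and were not called either. LRP6 was not paired with an identifier and was not analysed here.

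**Figure D5:**
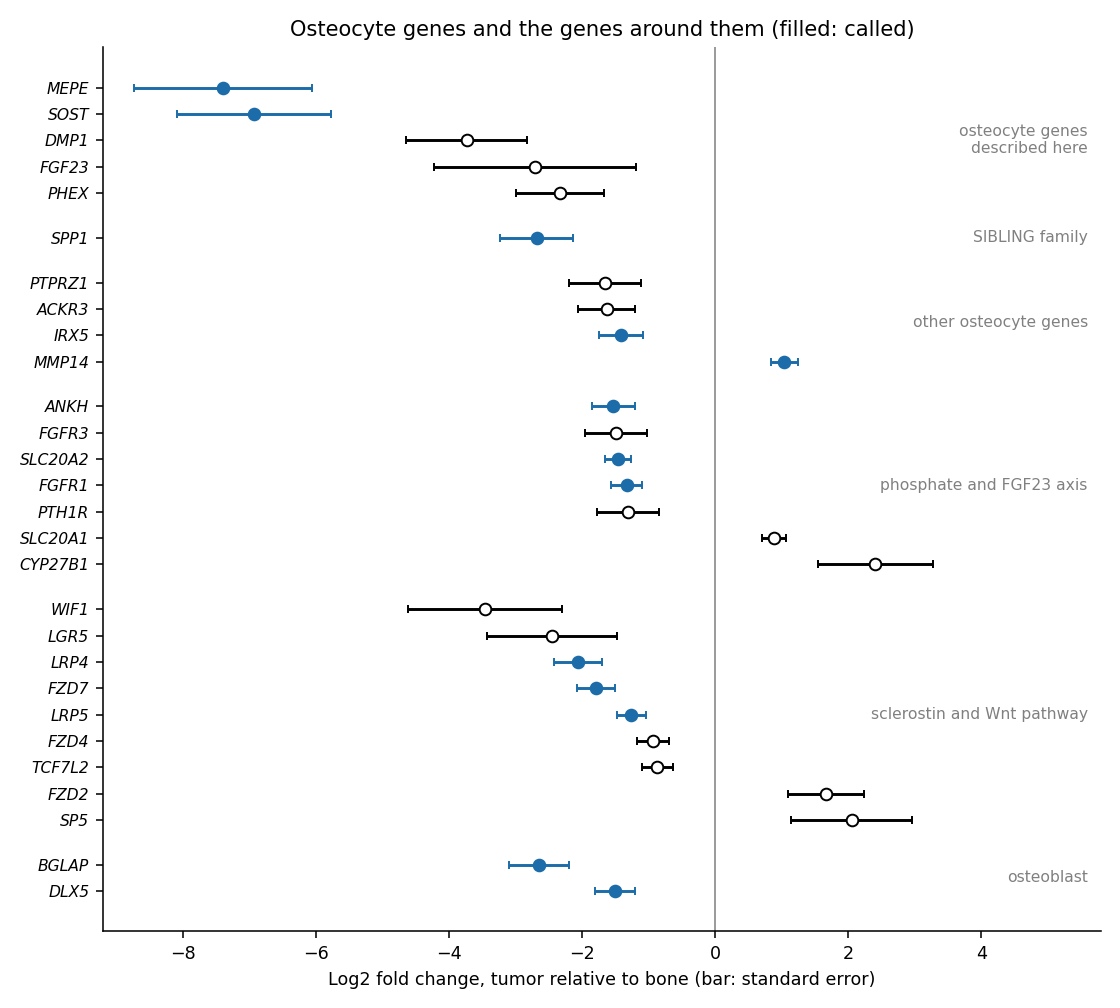
Log2 fold change of tumor relative to bone with its standard error for the 5 genes and for paired genes of the SIBLING, osteocyte, phosphate, Wnt and osteoblast lists; filled blue points were called. MEPE (-7.39) and SOST (-6.93) lie farthest to the left, and MMP14 (1.04) is the only called gene on the right.

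The 5 genes were next set against genes of the osteoblast, of which 4 of 18 could be paired. BGLAP (osteocalcin), SPP1 and the transcription factor DLX5 were called lower, with log2 fold changes of -2.64, -2.68 and -1.51 (FDR = 0.0117, 0.0277 and 0.0212 in the edgeR test), against 1.79% of all genes. Without dog A, D or G, 1 gene of the list was called. In each dog the median difference of these 4 genes was subtracted from that of each osteocyte gene. SOST was further below the osteoblast median in 7 of 7 dogs, by -3.50 ± 2.58 (SD, exact permutation p = 0.0156). MEPE and DMP1 were below it in 6 of 7 dogs, by -3.45 ± 3.09 and -1.67 ± 1.61 (exact permutation p = 0.0469 each). PHEX and FGF23 were not, at 0.22 ± 1.54 and 1.05 ± 1.65 (exact permutation p = 0.719 and 0.156), and the sign depended on the scale, since log2(normalized count + 1) gave -0.47 for PHEX and -0.82 for FGF23. After adjustment for these 5 comparisons none had a p under 0.05.

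Among 1946 named genes with a base mean over 50, likeness to SOST, MEPE, DMP1 and PHEX was taken as the smaller of the correlations within the 7 bones and within the 7 tumors, with the 5 osteocyte genes themselves left out of the search. These points share library depth and composition, and the named genes are mainly those called in the study. Among the remaining genes, the highest values for SOST were those of CNKSR2 and WIPF3 (0.74 each) and CBY2 (0.73). CNKSR2, a scaffold protein of Ras signaling, ran from 254 to 765 normalized counts in bone and from 4.7 to 99 in tumor. For MEPE they were EBF3, a transcription factor (0.81), MMP13, a collagenase of bone and cartilage (0.72), and ACKR4 (0.71). The tumor values of MMP13 reached from 243 to 30203 normalized counts, and its bones from 10017 to 27139. For DMP1 they were SPATA13 (0.80), FBXO10 (0.79) and DOK7 (0.77). For PHEX they were LRP4 (0.73), FBXO10 (0.71) and CYP2U1 (0.68).

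Markers of other cell types also differed between the tissues, and their counts stand against 1.79% of all genes called lower and 1.35% called higher, with the same limit on the pairing. Of 9 adipocyte genes, 8 were paired and all 8 were called lower in tumor, and their summed level was 18532 to 90488 normalized counts in bone and 2965 to 7954 in tumor. All 6 Schwann cell genes were paired and 5 were called lower (3 without dog A), with sums of 4061 to 10949 in bone and 495 to 3176 in tumor. All 8 proliferation genes were called higher, with sums of 1098 to 2347 in bone and 5082 to 33953 in tumor. Of 12 osteoclast genes, 7 were paired and 1 (CALCR) was called lower, and the sums overlapped, at 117477 to 531075 in bone and 6384 to 618012 in tumor. The 3 chondrocyte genes that were paired summed to 518 to 7238 in bone and 68.4 to 1138 in tumor, and CYTL1 was called lower. EMCN for endothelium (1 gene), EPB42 and HEMGN for erythroid cells and ACTA1 for muscle were not called, and no macrophage, tendon or T cell gene was paired. Among the markers named here, CDH19 of Schwann cells had 0 counts in the tumors of dogs B, C, E and F, SOX10 in dog C, COL9A1 of cartilage in dog B and CALCR in dog A. CYTL1 had 0 counts in the tumors of dogs C, D and E and in the bone of dog E, and ACTA1 in the bone of dog E. The part of these cells in the differences of the osteocyte genes was not tested.

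Total counts were 22564544 to 34479429 in bone (median 32127801) and 18650945 to 32887213 in tumor (median 29118261). SOST in the tumors of dogs F and G rests on 6 and 5 reads and MEPE in those of dogs B and F on 7 reads each.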

How the data were processed

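Tumor and bone RNA of 7 dogs was sequenced as polyadenylated libraries. Per the labels, the authors used Trimmomatic for trimming, HISAT2 2.2.1 for mapping to CanFam3.1, and StringTie 1.3.3 for quantification per Ensembl gene. The deposited values are raw counts without normalization, and strand and multi-mapping settings are not given in the sources used here. The authors' own fold changes and p-values were not used. The supplementary tables gave symbols for 2267 identifiers, mainly of genes the study calls, so the lists are described by counts and no set test was run. IBSP was not paired, which left 2 of 4 planned SIBLING pairs.

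The edgeR 4.0.16 quasi-likelihood test (R 4.3.3, TMM) took dog and tissue as terms over the 27655 genes with any count, followed by Benjamini-Hochberg adjustment (FDR). The standard error is the fitted coefficient over the square root of its F statistic. DESeq2 1.42.0 gave the normalized counts, the variance-stabilized counts (with the design) and the Wald test, and limma 3.58.1 the voom alternative. Exact tests exchanged bone and tumor within dogs (128 exchanges). On simulated counts the edgeR test recovered most changed genes with the right sign, but unchanged genes made up more of its calls than the nominal FDR, before the limits on base mean and fold. Each pair of tissues is from a single animal, and deviations from the tissue means correlated within dogs between 0.0766 and 0.204 (median 0.123, 16366 genes). Each tissue of each dog was 1 library, so the spread between dogs holds biological and technical variation together. The genes named are the 5 members, the called genes of each list (up to 8, with LRP4, LRP5, LRP6, KL, FGFR1 and the SIBLING family regardless) and the 3 most alike for each member with a base mean over 100; other list genes were named after their values were seen, and a few are not reported here. The members and lists were chosen with earlier results of these data known.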

Additional observations from a re-analysis of the deposited data

Results flagged for a closer look

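In 15 sets of 7 values (each of the 5 genes in bone, in tumor and as the difference), the highest and lowest value were compared with the rest by Dixon's criterion, which marks about 1 in 20 sets by chance. MEPE in the tumor of dog E stood apart, at 11.92 on the variance-stabilized log2 scale, or 3768 normalized counts against 58.5 or fewer in the other 6 tumors.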

How the results depend on the processing

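The number of called genes among the 5 was 2 in the paired edgeR test, 5 with the DESeq2 Wald test and 0 without the replicate block (the dog), and 1 (without dog G) to 4 (without dog C) with 1 dog left out. The share of all genes called was not computed with a dog left out, so those counts have no such share beside them. Without the block the log2 fold changes were -4.83 for SOST, -4.97 for MEPE, -2.27 for DMP1, -1.57 for PHEX and -1.27 for FGF23. DMP1 passed with the DESeq2 Wald test (-3.73), limma-voom (-3.34) and low-count genes removed (-3.71), and PHEX (-2.37) and FGF23 (-3.26) with the Wald test. With 1 dog left out, the log2 fold change ranged from -7.67 to -6.20 for SOST, from -8.25 to -6.57 for MEPE and from -4.36 to -3.16 for DMP1. It ranged from -2.85 to -1.94 for PHEX and from -3.60 (without dog G) to -1.92 (without dog D) for FGF23. The individual differences ranged from -5.62 to -4.63 for SOST, -5.81 to -4.55 for MEPE, -3.97 to -2.97 for DMP1, -1.87 to -1.19 for PHEX and -0.92 to -0.47 for FGF23. The exact permutation p, not adjusted, was then 0.0312, the smallest that 6 dogs allow, for SOST, MEPE and DMP1 whichever dog was left out. For PHEX it was 0.0312 without dog C and 0.0625, which did not pass, without any other dog, and for FGF23 it was 0.0312 without dog G, where it passed, and 0.0938 to 0.156 otherwise.

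On log2(count + 1), log2(count + 10) and TMM log2 CPM, the individual difference was -2.67, -1.29 and -2.28 for FGF23 and -2.33, -2.13 and -2.31 for PHEX, MEPE minus SPP1 was -4.61, -3.94 and -4.52, and DMP1 minus SPP1 was -1.09, -1.03 and -1.08. With log2(count + 1), SOST and MEPE minus the osteoblast median were -5.42 and -5.48, and SOST and MEPE minus DMP1 were -3.47 and -3.53. Some values changed sign. PHEX minus the osteoblast median was -0.47, -0.29 and -0.45 with log2(count + 1), log2(count + 10) and TMM log2 CPM and lay between -0.09 and 0.71 with a dog left out, and FGF23 was -0.82 and -0.41 with log2(count + 1) and TMM log2 CPM. SOST minus MEPE was 0.05, 0.02 and 0.05 on these scales and between -0.19 and 0.19 with a dog left out. Without the 2 dogs farthest from the median 0 of 20 relations passed with 5 libraries left, r of SOST with PHEX in tumor went from 0.83 to 0.07, and r became 0.25 for SOST with FGF23, 0.38 for MEPE with FGF23 and -0.41 for PHEX with FGF23 in bone, and -0.13 for SOST with DMP1, -0.10 for MEPE with FGF23 and 0.00 for DMP1 with FGF23 in tumor. The cause of the other changes was not tested. FGF23 rests on 162 reads or fewer in each library.

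Counts of called genes in the lists also moved by over 1.5 times. With the DESeq2 Wald test they went from 2 to 4 for other osteocyte genes, 3 to 6 for the phosphate list, 3 to 7 for the Wnt list, 1 to 7 for osteoclast, 1 to 3 for chondrocyte, 0 to 2 for erythroid and 0 to 1 for muscle genes. With DESeq2 size factors 1 other osteocyte gene was called. The chondrocyte count was 2 with limma-voom, without the block and without dog F, and the SIBLING count was 1 without the block, 1 without dog A or D and 0 without dog G. The endothelial gene was called without dog C. Other omissions of a dog took the other osteocyte genes to between 0 and 1, the osteoblast genes to 1 and the Schwann cell genes to 3, as given with those lists.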
